A study of Mus musculus with 24 samples.

Results

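The 6 hippocampal libraries compared here carry the same genotype under different title prefixes. They are the 3 libraries titled LG72 and the 3 titled LG73 whose labels give the genotype P301S+;msTrem2+/+ and the sex female, taken from 24 libraries in all. Both groups thus had the PS19 tau transgene, a human tau with the P301S change, and only the mouse Trem2 gene. The labels do not say what LG72 and LG73 stand for and give no ages, so line, litter, dissection and processing day cannot be told apart within the prefix. They also do not say that each library came from a separate mouse, so each p-value measures only how far these libraries spread. Besides these controls, LG72 covered R47H-TREM2 mice (5 females and 5 males) and a further 2 males without a human allele, and LG73 covered 6 WT-TREM2 females, all on the same tau background. R47H-TREM2 and WT-TREM2 mice had 1 human TREM2 allele, with or without the R47H change (P301S+;hTREM2-R47H/+ and P301S+;hTREM2-WT/+). Poly(A) RNA was sequenced, and levels below are CPM, the share of a library's counts that fall on a gene, with TMM scaling. Libraries are numbered 1 to 3 within each prefix in the order of deposit.

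PS19 mice express mutant human tau in neurons under the prion protein promoter, and tau aggregates, neuron loss and gliosis follow with age. The hippocampus holds the pyramidal neurons of fields CA1 to CA3, the granule neurons of the dentate gyrus, several classes of GABA interneurons, and glia. It borders on the ventricle with its ependyma and choroid plexus, and lies close to cortex, thalamus and striatum.

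Counts per library ran from 17545680 to 23807390 in LG72 and from 15578442 to 21051458 in LG73. All 6 held RNA of excitatory and granule neurons, which does not show how cleanly the hippocampus was dissected. Slc17a7, the glutamate transporter of cortical and hippocampal excitatory neurons, lay between 1643 and 2490 CPM, and the granule neuron factor Prox1 between 10.8 and 72.6 CPM. The labelled sex held, with Xist at 63.1 to 201 CPM and at most 6 counts of any of 4 Y-linked genes in a library. Some libraries stood apart in what else they held. LG72 library 1 had 419.7 CPM of Omp, the olfactory marker protein, against 0.372 to 1.32 CPM in the other 5. LG72 library 3 had 53.6 CPM of the striatal adenosine receptor Adora2a, against 1.62 to 6.37 CPM, and LG73 library 3 had 58.7 CPM of the pituitary hormone Prl, against 0.111 to 2.24 CPM. The liver gene Alb lay at 70.2 to 78.7 CPM in LG72 libraries 1 and 3 and LG73 library 1, and at 2.24 to 7.39 CPM in the other 3. For several lists and genes results are given with and without these libraries.

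No single gene passed the test between the 2 prefixes. Of 16118 genes, edgeR called 0 at an adjusted p under 0.05, which is 0% of the genes tested, and the smallest adjusted p was 0.771. At an unadjusted p under 0.05 there were 691 genes (4.29%), 324 higher in LG73 (2.01%) and 367 lower (2.28%). Limma-voom with sample weights also called 0 genes, with 856 at an unadjusted p under 0.05. DESeq2 called 2, Vip and Cdkn1a, both lower in LG73, with 818 at an unadjusted p under 0.05. Leaving out LG72 library 2 gave 2 edgeR calls, Cdkn1a and Omp, and leaving out any other single library of the 6 gave 0. The median standard error of a log2 fold change was 0.313. For 9062 genes (56.2%) the 95% interval lay within 1 log2 unit of 0, so a difference above 2-fold lay outside it, and for the other genes the interval reached beyond 1 log2 unit.

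The median distance between 2 libraries was much the same within a prefix as between prefixes. The standard deviation over genes of the log2 CPM difference between a pair of libraries had a median of 0.742 over the 6 pairs within a prefix and of 0.747 over the 9 pairs between prefixes. The 3 LG73 libraries lay closest together, at 0.616 to 0.699, and the 3 LG72 libraries farthest apart, at 0.784 to 0.885. The first 3 principal components of the 6 libraries held 34.6%, 22.6% and 18.6% of the variance. LG72 library 1 lay at the end of the first and LG72 library 3 at the end of the second. For 1524 genes (9.46% of those tested) the 3 values of one prefix did not overlap the 3 of the other, 865 with LG73 above (5.37%) and 659 with LG73 below (4.09%). Exact permutation of 3 against 3 libraries cannot give a p below 0.1. With upper-quartile scaling these counts were 1053 above and 549 below.

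**Figure D1:**
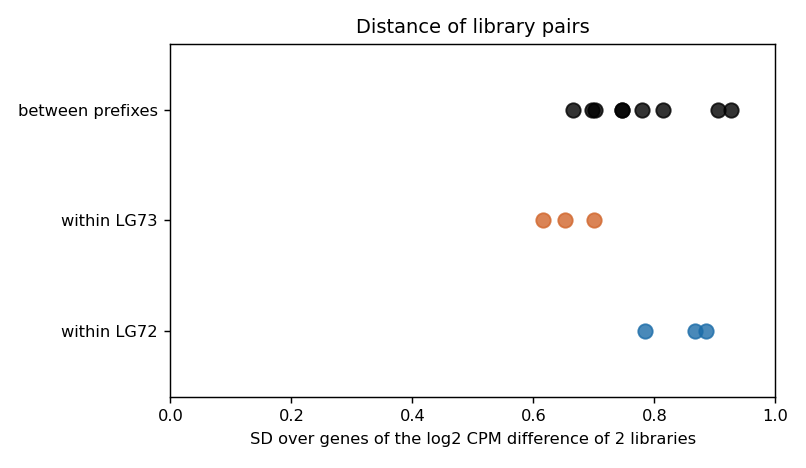
Each point is a pair of Trem2+/+ female libraries, and the x axis is the standard deviation over 16118 genes of their difference in log2 CPM. The 9 pairs between prefixes (0.665 to 0.927) reach both below and above the 3 pairs within LG72 (0.784 to 0.885), and the 3 pairs within LG73 (0.616 to 0.699) lie towards the low end.

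The genes with the smallest p among those lower in LG73 were led by a neuropeptide and an olfactory gene. Vip, the vasoactive intestinal peptide of a class of GABA interneurons (chr10:5639193-5647617 on GRCm38.p6), stood at 70.5, 31.9 and 39.6 CPM in the LG72 libraries and 18.6, 10.1 and 13 CPM in the LG73 libraries. Every LG73 value lay below every LG72 value (log2 fold change -1.76, SE 0.38, edgeR adjusted p = 0.771). The other females overlapped between prefixes, with Vip at 14.3 to 43.3 CPM in the 5 LG72 R47H-TREM2 females and 16.7 to 31 CPM in the 6 LG73 WT-TREM2 females. Dpp10, an accessory subunit of Kv4 potassium channels, stood at 134, 193 and 201.7 CPM in the LG72 libraries and 83.5, 69.4 and 55 CPM in the LG73 libraries, again without overlap (log2 fold change -1.35, SE 0.33, edgeR adjusted p = 0.774). Among the human TREM2 females it showed no such order, at 39.4 to 135.8 CPM in the 5 LG72 R47H-TREM2 females and 75.6 to 131.5 CPM in the 6 LG73 WT-TREM2 females. Coch, an extracellular matrix protein, had 10.6, 9.78 and 30.04 CPM in LG72 and 3.89, 4.16 and 2.13 CPM in LG73 (log2 fold change -2.30, SE 0.58). Eid2b, of the EID family of transcriptional inhibitors, had 53.8, 35.8 and 33.9 CPM in LG72 and 27.1, 24.8 and 21.7 CPM in LG73 (log2 fold change -0.75, SE 0.19). The adrenergic receptor gene Adra1b had 8.34, 6.59 and 23 CPM in LG72 and 4.45, 4.16 and 3.2 CPM in LG73 (log2 fold change -1.68, SE 0.42). For all 3 genes the prefixes did not overlap, and for Coch and Adra1b LG72 library 3 was the highest by far. Cdkn1a, the cell cycle inhibitor p21 that stress and DNA damage induce, had 90.5, 9.61 and 37.9 CPM in LG72 and 7.22, 9.8 and 7.58 CPM in LG73 (log2 fold change -2.49, SE 0.58, edgeR adjusted p = 0.774). Here LG72 library 2 lay among the LG73 values, and with only the libraries of low Alb the log2 fold change was -0.15.

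The other 4 places were taken by 3 genes of olfactory tissue and by the noncoding RNA Cistr-act, described last. Omp, Doc2g and S100a5 reached 419.7, 93.7 and 118.8 CPM in LG72 library 1. No other library of the 6 exceeded 2.34 CPM for any of them, and the values of the 2 prefixes overlapped. These differences are thus carried by 1 library.

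The 10 genes with the smallest p among those higher in LG73 did not overlap between the prefixes, a property that 5.37% of all genes tested had and that such a choice by p favours. Il16, the precursor of interleukin 16, had 21.6, 19.6 and 7.86 CPM in the LG72 libraries and 39.6, 47.5 and 42 CPM in the LG73 libraries (log2 fold change 1.40, SE 0.37, edgeR adjusted p = 0.774). Gabra5, the GABA-A receptor subunit alpha-5 that is abundant in hippocampal pyramidal cells, had 157, 199 and 92.7 CPM in LG72 and 254, 272 and 286 CPM in LG73 (log2 fold change 0.86, SE 0.23). Lpl, the lipoprotein lipase, had 34.7, 85.9 and 69.2 CPM in LG72 and 149, 187 and 142 CPM in LG73 (log2 fold change 1.33, SE 0.37). For these 3 genes the LG73 libraries lay close together and the LG72 libraries were spread, with the lowest value in LG72 library 3 for Il16 and Gabra5 and in LG72 library 1 for Lpl. In the human TREM2 females all 3 overlapped, with Lpl at 49.95 to 129.9 CPM in the 5 LG72 R47H-TREM2 females and 79.1 to 215 CPM in the 6 LG73 WT-TREM2 females. Ust, a sulfotransferase of dermatan and chondroitin sulfate, had 41.8, 63.4 and 38.8 CPM in LG72 and 80.7, 92.3 and 87.1 CPM in LG73 (log2 fold change 0.85, SE 0.24). Pm20d1, an enzyme that forms N-acyl amino acids, had 1.44, 0.503 and 0.892 CPM in LG72 and 3.06, 4.28 and 4.39 CPM in LG73 (log2 fold change 2.04, SE 0.55). The remaining 5 were Fer1l5 of the ferlin family, the claudin-like Cldn26 (Tmem114 in RefSeq), the 2-hydroxyglutarate dehydrogenase D2hgdh, the transcription factor Nhlh2 and the matrix protein Vit, with log2 fold changes of 0.87, 1.63, 0.80, 2.10 and 0.99. None of the 10 had an edgeR adjusted p below 0.774.

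**Figure D2:**
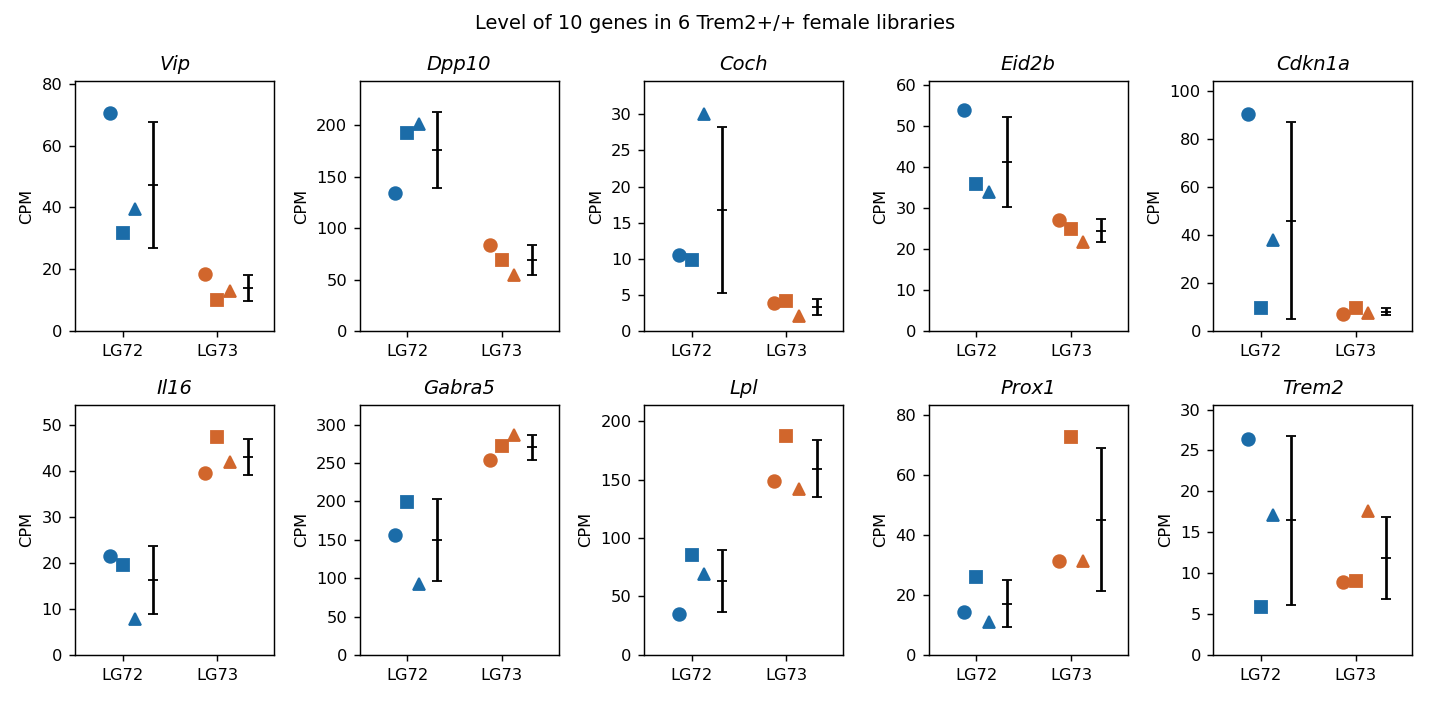
CPM (y axis, from 0) of 10 genes in the 3 LG72 (blue) and 3 LG73 (orange) libraries; circle, square and triangle are libraries 1, 2 and 3 of a prefix, and black bars are mean and SD (n = 3). Vip, Dpp10, Coch and Eid2b are lower in every LG73 library and Il16, Gabra5, Lpl and Prox1 higher, while Cdkn1a and Trem2 overlap; no gene passed the edgeR test.

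Genes of the ependymal cilium separated the prefixes as a list, with little spread of their summed level within each. Ependymal cells line the ventricles and carry motile cilia. Of the 19 genes tested 18 were higher in LG73, with a median log2 fold change of 0.97 against -0.024 for all genes, and 8 of them (against 5.37% of all genes) lay above every LG72 value. The summed level of the list was 73.6, 75.1 and 80.5 CPM in LG72 and 140.4, 123.7 and 141 CPM in LG73. All 3 LG73 sums lay above all 3 LG72 sums. The mean log2 level of the list, centred on the 6 libraries, was also separate but spread more in LG72 (-0.77 to -0.13) than in LG73 (0.41 to 0.55). Rsph1, a radial spoke protein of the cilium, had 5.39, 4.19 and 3.78 CPM in LG72 and 12.6, 11.8 and 11.7 CPM in LG73 (log2 fold change 1.43, SE 0.57). Ccdc153, a coiled-coil protein of ciliated cells, had 5.33, 1.68 and 3.02 CPM in LG72 and 9.54, 6.64 and 12.7 CPM in LG73 (log2 fold change 1.53, SE 0.62). Tmem212, an ependymal marker, had 1.0, 0.335 and 1.44 CPM in LG72 and 2.92, 4.28 and 2.76 CPM in LG73. All 3 genes were higher in every LG73 library. Ak7, an adenylate kinase of cilia, had 1.5, 0.447 and 1.27 CPM in LG72 and 3.75, 3.35 and 4.57 CPM in LG73. Tekt1, a filament protein of ciliary microtubules named after its values were seen, had 3.11, 2.91 and 1.87 CPM in LG72 and 5.51, 5.46 and 5.45 CPM in LG73 (log2 fold change 1.06, SE 0.56). All 5 were separate between the prefixes, but the smallest edgeR adjusted p among them was 0.998. Leaving out each library gave a median of 0.76 to 1.20. Within the libraries of low Alb (1 LG72 against 2 LG73) it was 1.15 and within those of high Alb (2 against 1) 0.82.

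Ciliary genes are known targets of RFX factors, whose binding motif, the X-box, contains the half-site GTTGCC. The promoters of Tekt1 (chr11:72361833-72362132, minus strand) and Ccdc153 (chr9:44240427-44240726, plus strand) are shown because these genes were separate between the prefixes and their windows hold that half-site, in capitals, in either orientation (GTTGCC or GGCAAC). Each window runs from 250 bases before to 50 bases after the start, read from RefSeq on GRCm38.p6.
Tekt1: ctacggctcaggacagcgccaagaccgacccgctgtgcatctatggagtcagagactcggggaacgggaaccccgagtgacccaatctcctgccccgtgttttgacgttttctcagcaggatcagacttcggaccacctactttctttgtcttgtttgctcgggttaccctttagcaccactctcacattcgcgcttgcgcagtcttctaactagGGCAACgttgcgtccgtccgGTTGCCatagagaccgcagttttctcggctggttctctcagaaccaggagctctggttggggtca
Ccdc153: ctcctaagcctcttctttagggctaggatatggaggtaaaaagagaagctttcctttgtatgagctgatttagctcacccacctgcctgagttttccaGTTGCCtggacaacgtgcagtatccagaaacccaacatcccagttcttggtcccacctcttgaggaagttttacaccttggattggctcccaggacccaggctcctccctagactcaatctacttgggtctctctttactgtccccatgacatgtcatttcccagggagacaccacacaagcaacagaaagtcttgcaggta
Of the 19 ependymal genes tested, 16 had a window in the table, and 7 of these (43.8%) held the half-site on either strand, as did 14.1% of the 27025 genes with a window. The match is a description of the letters and no measure of binding.

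The choroid plexus, the epithelium that secretes cerebrospinal fluid, followed the same direction with wider spread. Of 25 listed genes 24 were higher in LG73, with a median log2 fold change of 1.84, and 7 lay above every LG72 value, against 5.37% of all genes. Ttr, the thyroid hormone carrier transthyretin and the most abundant of them, had 217, 505 and 33.1 CPM in LG72 and 1376, 843 and 296 CPM in LG73 (log2 fold change 1.74, SE 1.11, edgeR adjusted p = 0.998). Its lowest LG73 value lay below the highest LG72 value, so the prefixes overlapped. Kl, the Klotho protein, had 21.1, 43.4 and 14.7 CPM in LG72 and 120.3, 111 and 51.2 CPM in LG73 (log2 fold change 1.84, SE 0.74). F5, the coagulation factor V, had 1.94, 3.63 and 1.7 CPM in LG72 and 16.8, 15 and 5.2 CPM in LG73 (log2 fold change 2.35, SE 0.88). Calml4, a calmodulin-like protein, had 3.39, 3.86 and 0.807 CPM in LG72 and 17, 11.5 and 4.83 CPM in LG73 (log2 fold change 2.07, SE 0.90). These 3 were separate, with the lowest value of each prefix in its library 3. The summed level of the list was 352, 781 and 121 CPM in LG72 and 2054, 1416 and 544 CPM in LG73. The median was 1.39 without LG72 library 3 and 2.63 without LG72 library 2. It was 0.53 among the libraries of low Alb and 3.0 among those of high Alb. In such bulk tissue, fewer cells of a type and less RNA per cell cannot be told apart.

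Dentate granule and CA3 genes leaned towards LG73. Of the 20 dentate granule genes 15 were higher there (median log2 fold change 0.50). Prox1, the transcription factor that sets granule cell identity, had 14.4, 26 and 10.8 CPM in LG72 and 31.4, 72.6 and 31.3 CPM in LG73 (log2 fold change 1.40, SE 0.55, edgeR adjusted p = 0.998). Lct, listed for the granule cells, had 7.22, 16.5 and 2.76 CPM in LG72 and 34.9, 60.9 and 29.6 CPM in LG73 (log2 fold change 2.25, SE 0.73). Maml2, a coactivator of Notch signalling, had 12, 11.5 and 5.69 CPM in LG72 and 15, 26.6 and 16.9 CPM in LG73 (log2 fold change 1.0, SE 0.36). The synaptic organizer C1ql2 had 25.9, 60.5 and 5.23 CPM in LG72 and 109, 169 and 27.8 CPM in LG73, with overlap. Of the 20 listed genes 3 lay above every LG72 value and 0 below, against 5.37% and 4.09% of all genes. All 3 are among these 4, which were chosen by smallest p. LG73 library 2 was the highest in all 4. Without that library the list's median was 0.10. Of 17 CA3 and CA2 genes 12 were higher (median 0.37), 6 of them above every LG72 value and 2 genes below, against 5.37% and 4.09% of all genes. Without LG73 library 3 the median was 0.17. Grik4, a kainate receptor subunit of CA3, had 37.1, 36.9 and 28.3 CPM in LG72 and 61.1, 52.2 and 56.3 CPM in LG73 (log2 fold change 0.73, SE 0.27). Fam19a1, a secreted neurokine, and Cpne4, a copine, had log2 fold changes of 0.65 and 0.64, again without overlap. Coch, described above, is on the same list with the opposite sign. The 14 CA1 genes showed no lean, with 6 higher and a median of -0.13. Among general excitatory genes (11 of 18 higher, median 0.25, and 0.15 without LG73 library 2) Neurod6 had 100.4, 190.3 and 105 CPM in LG72 and 191, 237 and 283 CPM in LG73 (log2 fold change 0.85, SE 0.30), whereas the cortical factor Tbr1 had 51.6, 86.8 and 162.9 CPM in LG72 and 55.6, 72.7 and 37.7 CPM in LG73 (log2 fold change -0.86, SE 0.35).

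Genes of inhibitory neurons and of neighbouring regions leaned the other way. Of 24 interneuron genes 20 were lower in LG73 (median log2 fold change -0.43), and 5 lay below every LG72 value, against 4.09% of all genes. Among them were Gad1, Vip, Dlx5 and Crh. Crh, the corticotropin-releasing hormone, had 3.78, 2.46 and 6.29 CPM in LG72 and 1.71, 1.68 and 1.63 CPM in LG73 (log2 fold change -1.32, SE 0.42, edgeR adjusted p = 0.998). Dlx5, a transcription factor of GABA neurons, had 4.06, 3.52 and 4.8 CPM in LG72 and 2.27, 2.48 and 2.51 CPM in LG73. Gad1, which makes GABA, had 325, 364 and 357 CPM in LG72 and 285, 316 and 287 CPM in LG73. With each library left out in turn the median was between -0.57 and -0.27, and without LG72 libraries 1 and 3 and LG73 library 3 it was -0.17.

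Of 24 cortical layer genes 19 were lower (median -0.45, and -0.29 without LG72 library 3). Foxp2, a transcription factor of deep layers, had 11.9, 10.7 and 39 CPM in LG72 and 4.49, 7.07 and 5.7 CPM in LG73 (log2 fold change -1.84, SE 0.56). Myl4, a myosin light chain of the same list, had 9.56, 2.91 and 13.5 CPM in LG72 and 2.13, 3.1 and 1.57 CPM in LG73, with overlap. Fam84b was higher, at 16.4, 19.7 and 9.31 CPM in LG72 and 32.3, 40.5 and 19.1 CPM in LG73. Of 19 striatal genes 18 were lower (median -1.11). The homeobox factor Meis2 had 74.1, 80.1 and 121 CPM in LG72 and 51.1, 45.5 and 47.8 CPM in LG73 (log2 fold change -0.93, SE 0.31). Its prefixes were separate. The dopamine receptor gene Drd2 overlapped, at 3.11, 3.13 and 18.1 CPM in LG72 and 3.89, 1.24 and 0.689 CPM in LG73. LG72 library 3 was the highest for both genes, and the summed striatal level was 517, 513 and 1408 CPM in LG72 and 490.1, 491 and 419 CPM in LG73. Without this library the median was -0.52, and without all 3 libraries that stood apart -0.28. The olfactory list (15 of 19 lower, median -1.02) had a median of -0.18 without LG72 library 1 and of 0.078 without the 3 libraries. Th, the dopamine-synthesis enzyme of bulb neurons, had 17.2, 0.671 and 1.36 CPM in LG72 and 0.185, 0.31 and 0.313 CPM in LG73. Whether these levels play a part in the difference of any other gene was not tested. With LG72 libraries 1 and 3 and LG73 library 3 left out, which leaves 1 LG72 against 2 LG73 libraries, the log2 fold change was -1.13 for Vip, -1.32 for Dpp10, -1.26 for Coch, -0.60 for Adra1b, -0.16 for Cdkn1a, 1.17 for Il16 and 0.98 for Lpl. Each of these had the sign of the full comparison, with Cdkn1a nearest to 0. In the same setting the log2 fold change was 0.19 for Neurod6, 0.42 for Gabra5, 0.39 for Gria1, -0.45 for Eid2b and -0.52 for Crh.

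**Figure D3:**
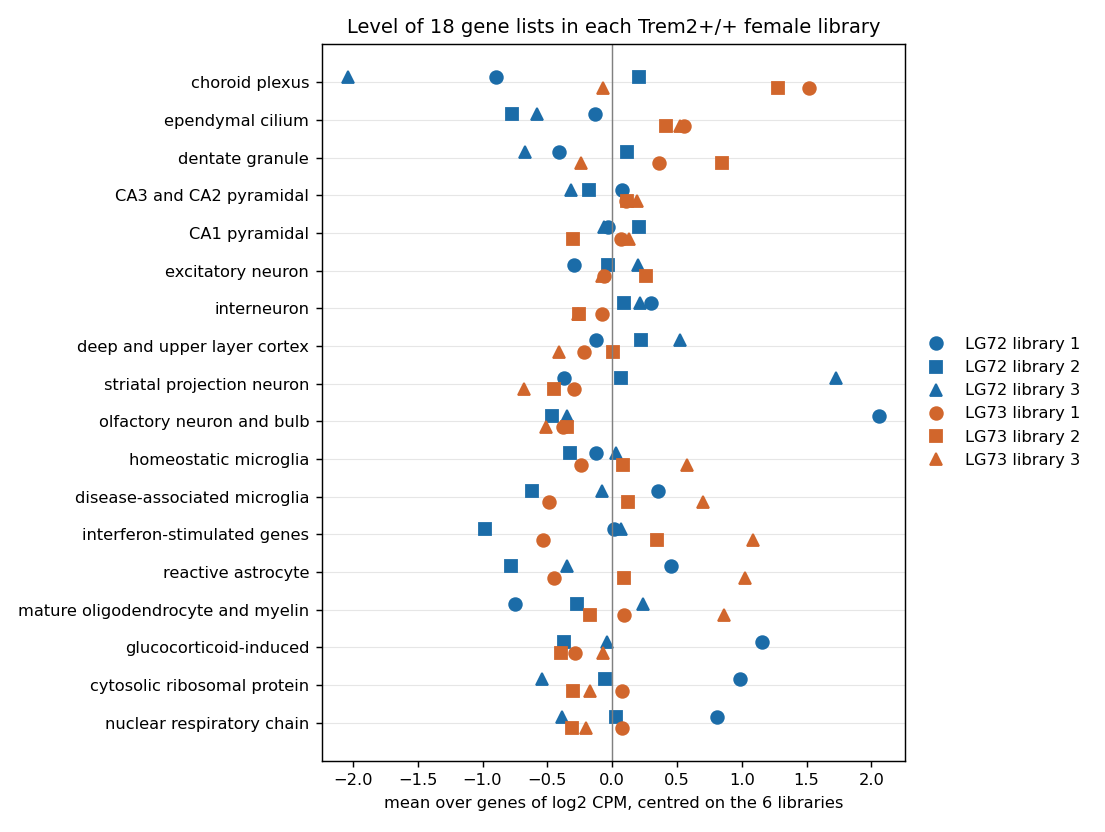
The x axis is the level of a list, the mean over its genes of log2 CPM centred on the 6 libraries, for each of 3 LG72 (blue) and 3 LG73 (orange) libraries, whose shapes mark libraries 1 to 3. Ependymal cilium, interneuron and CA3 and CA2 levels separate by prefix, the last narrowly, with LG72 up to 0.075 and LG73 from 0.108. The summed CPM of CA3 and CA2 genes overlapped, at 873 to 941 in LG72 and 907 to 962 in LG73. The olfactory and glucocorticoid lists are set apart by LG72 library 1 and the striatal list by LG72 library 3. Interferon, reactive astrocyte and myelin levels are highest in LG73 library 3. The first 2 are lowest in LG72 library 2, and myelin is lowest in LG72 library 1.

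Interferon, microglia, reactive astrocyte, antigen presentation and myelin genes had medians above 0 that were smaller or turned without LG73 library 3. Of 39 interferon-stimulated genes 37 were higher in LG73 (median log2 fold change 0.57), and 2 lay above every LG72 value, against 5.37% of all genes. Gbp2, an interferon-induced GTPase, had 3.39, 1.79 and 3.65 CPM in LG72 and 2.92, 8.19 and 15.1 CPM in LG73 (log2 fold change 1.56, SE 0.56, edgeR adjusted p = 0.998). Ddx58, the RNA sensor RIG-I, had 3.61, 4.3 and 4.25 CPM in LG72 and 4.21, 7.01 and 10.03 CPM in LG73 (log2 fold change 0.80, SE 0.37). Both overlapped, with LG73 library 3 highest. The list's median was 0.21 without that library, 1.89 among the libraries of low Alb and -0.69 among those of high Alb. For 33 reactive astrocyte genes the median was 0.44 with it and -0.10 without, and it turned in the same way with Alb, at 1.44 and -0.63. Gfap, the intermediate filament of astrocytes, had 2509, 435 and 621 CPM in LG72 and 639.6, 1250.3 and 2609 CPM in LG73. Each prefix thus had 1 library at 2509 CPM or more, and LG73 library 2 lay between these and the rest. Homeostatic microglia genes had a median of 0.32 (0.04 without LG73 library 3), disease-associated microglia genes 0.24 (-0.11), antigen presentation genes 0.50 (0.10) and myelin genes 0.48 (0.049). Some of these medians also shrank without an LG72 library. Without LG72 library 2 the interferon median was 0.40 and the reactive astrocyte median 0.31, and without LG72 library 1 the myelin median was 0.24. The 20 general astrocyte genes had a median of -0.014, with 10 higher and 10 lower.

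Single glial genes were separate without passing the test, as were 9.46% of all genes tested. Of 26 homeostatic microglia genes 1 lay above every LG72 value and 1 below. Of 34 disease-associated microglia genes these numbers were 2 and 1, and of 20 astrocyte genes 2 and 0. Slc2a5, the fructose transporter of microglia, had 1.17, 3.97 and 6.12 CPM in LG72 and 7.27, 7.51 and 13.7 CPM in LG73 (log2 fold change 1.33, SE 0.44, edgeR adjusted p = 0.998). Igf1, a growth factor on the list of disease-associated microglia, went the other way, at 17.7, 14.6 and 12.7 CPM in LG72 and 12, 9.93 and 9.02 CPM in LG73 (log2 fold change -0.54, SE 0.25). Slc7a10, an amino acid transporter of astrocytes, had 19.1, 19.4 and 20.5 CPM in LG72 and 31.4, 34 and 30.5 CPM in LG73 (log2 fold change 0.70, SE 0.26), with the values of each prefix close together. Csf1, a growth factor for microglia, overlapped at 14.6, 16.3 and 22 CPM in LG72 and 21.7, 30.6 and 34.6 CPM in LG73. Trf, the transferrin of oligodendrocytes, overlapped too, at 134, 389 and 562 CPM in LG72 and 469, 579 and 1263 CPM in LG73. Tgfb2, a growth factor, was separate at 33.3, 52.6 and 16.7 CPM in LG72 and 68.8, 82.3 and 79.8 CPM in LG73 (log2 fold change 1.17, SE 0.37).

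The genes that define the model showed no difference beyond their spread. Trem2, the lipid-sensing receptor of microglia, had 26.4, 5.81 and 17.2 CPM in the LG72 libraries and 8.94, 9.0 and 17.6 CPM in the LG73 libraries (log2 fold change -0.48, SE 0.63, edgeR adjusted p = 0.998). Both prefixes overlapped, and the sign turned with the setting: the log2 fold change was 1.19 among the libraries of low Alb. The 95% interval ran from -1.77 to 0.82, so a 2-fold lower level in LG73 lay inside it. Mapt, the mouse tau gene, whose symbol was not checked for reads of the human transgene, had 420.2, 572 and 657 CPM in the LG72 libraries and 646, 569 and 539 CPM in the LG73 libraries (log2 fold change 0.088, SE 0.21). Prnp, whose promoter drives the transgene in PS19 mice, had 1772, 2247 and 2195 CPM in the LG72 libraries and 1788, 2273 and 2115 CPM in the LG73 libraries (log2 fold change -0.0089, SE 0.25). The 95% intervals of Mapt and Prnp ran from -0.34 to 0.52 and from -0.53 to 0.52. Median log2 fold changes were -0.019 for 27 genes of tau and its kinases, 0.0007 for 41 genes of the PI3K, AKT and mTOR pathway, -0.015 for 35 synaptic genes and 0.023 for 33 immediate early genes. Without LG72 library 3 the last 2 were 0.18 and 0.37. Some members were separate, as were 9.46% of all genes tested. In the PI3K, AKT and mTOR list 1 of 41 genes lay above every LG72 value and 2 below. Of the 35 synaptic genes 3 lay above and 3 below. Of the 27 tau genes 1 lay below, and of the 33 immediate early genes 2 lay above. Mlst8, a subunit shared by the mTOR complexes, had 32.6, 29.2 and 31.8 CPM in LG72 and 23.5, 23.2 and 22.2 CPM in LG73 (log2 fold change -0.44, SE 0.17). The mTOR inhibitor Deptor overlapped at 13.9, 29 and 27.2 CPM in LG72 and 15.5, 12.7 and 12.3 CPM in LG73. The AMPA receptor subunit gene Gria1 had 657, 951 and 638 CPM in LG72 and 1022, 1437 and 1299.6 CPM in LG73 (log2 fold change 0.74, SE 0.30). Stx1a, a fusion protein of the synaptic vesicle machinery, had 84.1, 98.9 and 213 CPM in LG72 and 69.98, 71.2 and 54.9 CPM in LG73 (log2 fold change -1.01, SE 0.35).

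Glucocorticoid-induced, ribosomal and respiratory chain genes were lower in LG73 by a margin that shrank or turned without LG72 library 1. Of 25 glucocorticoid-induced genes 22 were lower in LG73 (median -0.57, and -0.14 without that library; 0.15 without all 3 libraries that stood apart). Sult1a1, a sulfotransferase of the list, had 42.6, 11.3 and 4.89 CPM in LG72 and 8.29, 7.38 and 5.45 CPM in LG73. Of 79 ribosomal protein genes 70 were lower (median -0.42, and 0.16 without it). Of 63 nuclear respiratory chain genes 61 were lower (median -0.33, and -0.0058 without it). In the same library log2 expression fell with transcript length with a slope of -0.112, against -0.00446 to 0.0907 in the other 5. With the slope as a covariate the medians were -0.045 for ribosomal and -0.10 for respiratory genes. Of 21 circadian clock genes 17 were lower (median -0.32), but the median was -0.13 without LG72 library 3 and 0.043 without the 3 libraries that stood apart. Per2, a core repressor of the clock, had 15.7, 18.1 and 32.6 CPM in LG72 and 13.6, 15.3 and 14.4 CPM in LG73 (log2 fold change -0.62, SE 0.30), and its log2 fold change was -0.23 without LG72 library 3. Prkcd, a kinase of thalamic neurons, was higher at 12.2, 5.76 and 5.31 CPM in LG72 and 29, 12.9 and 17.8 CPM in LG73 (log2 fold change 1.36, SE 0.57), while the 19 thalamic genes had a median of -0.10 (0.15 without LG72 library 2).

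The study holds another pair of female groups under the same prefixes that shares no library with the controls, LG73 WT-TREM2 and LG72 R47H-TREM2. In that pair the prefix and the human allele cannot be told apart. EdgeR called 1 gene there, Hap1 (0.0062% of 16118), with 2099 at an unadjusted p under 0.05 (13%), while limma-voom called 0 and DESeq2 67. Hap1, the huntingtin-associated protein, had 66.6 to 74.4 CPM in the 5 LG72 R47H-TREM2 females and 104 to 192 CPM in the 6 LG73 WT-TREM2 females (log2 fold change 1.12, SE 0.18, edgeR adjusted p = 0.0244), against 135, 113 and 135 CPM in the LG72 libraries and 135.97, 106.3 and 93.3 CPM in the LG73 libraries in the controls (log2 fold change -0.19, SE 0.23). The edgeR call of Hap1 was lost with only the groups compared, and without any 1 of 8 libraries, LG72 R47H-TREM2 females 1 to 5 and LG73 WT-TREM2 females 1, 3 and 4. Of the 691 genes at an unadjusted p under 0.05 in the controls, 276 (39.9%) had the same sign in the other pair, as did 47.9% of all genes. Choroid plexus, ependymal, striatal and interneuron genes had the opposite sign there. The median log2 fold change was -2.15 for choroid plexus, -0.75 for the ependymal cilium, 1.03 for striatal genes and 0.29 for interneuron genes. The levels of each of these lists, centred on the libraries of that pair, overlapped between its groups. The striatal level was 1.94 and 1.53 in LG73 WT-TREM2 females 2 and 5 and at most 0.055 in every other library. Choroid plexus levels ran from -0.15 to 2.64 in LG72 and from -2.11 to 0.79 in LG73. Ttr, for example, had 295 to 2945 CPM in the 5 LG72 R47H-TREM2 females and 21.5 to 495 CPM in the 6 LG73 WT-TREM2 females. Interferon-stimulated and reactive astrocyte genes had medians of -0.86 and -1.11. Other lists had the same sign in both pairs, among them dentate granule and general excitatory genes, at 0.18 and 0.33. Ribosomal and respiratory chain genes also did, at -0.55 and -0.38, with 77 of 79 and 55 of 63 genes lower in LG73. In the controls, however, their medians were 0.16 and -0.0058 without LG72 library 1. In the human TREM2 pair the levels of both lists overlapped, with ribosomal levels of -0.88 to 0.88 in LG72 and -0.95 to 0.23 in LG73. The difference between the 2 pairs was tested in the same edgeR fit, which called 0 genes (0%), with 1459 at an unadjusted p under 0.05 (9.05%) and a smallest adjusted p of 0.244. DESeq2 called 13 genes in that test and limma-voom 0, and edgeR called 1 without LG73 control library 1, the histamine receptor gene Hrh3, named after its value was seen. All 25 choroid plexus genes were among those at an unadjusted p under 0.05.

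**Figure D4:**
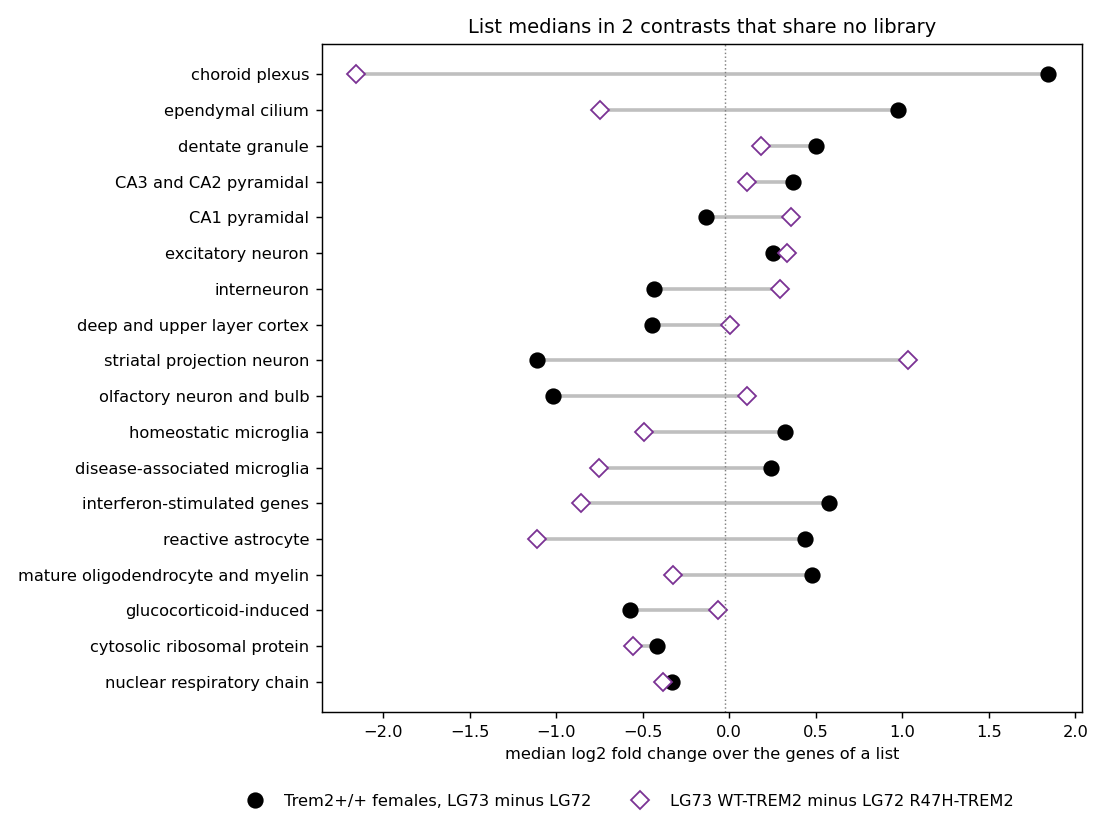
The x axis is the median log2 fold change over the genes of a list, LG73 minus LG72, in the 6 Trem2+/+ females (black circles) and in the 11 human TREM2 females (open diamonds), where prefix and allele cannot be told apart; the dotted line is the median of all genes in the controls, -0.024. Choroid plexus (1.84 and -2.15), ependymal cilium (0.97 and -0.75) and striatal genes (-1.11 and 1.03) point in opposite directions in the 2 contrasts, and dentate granule genes (0.50 and 0.18) in the same one. In the human TREM2 females the levels of each of these lists overlapped between the groups, and the striatal level was high only in LG73 WT-TREM2 females 2 and 5.

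Among the named genes, the noncoding RNA Cistr-act followed the prefix beyond the controls. RefSeq lists it as Cistr, a long noncoding RNA of 469 bases at chr15:102746441-102746909 on GRCm38.p6. The LG72 controls had 26, 18 and 22 counts (1.44, 1.01 and 0.935 CPM) and the LG73 controls 0, 0 and 0. A floor of 3 counts over the 3 LG73 libraries lay 20.2-fold below the mean of the LG72 controls. This ratio takes no account of the spread between libraries and is no bound. In the edgeR fit of the controls the 95% interval of the log2 fold change ran from -11.1 to -3.67 (edgeR adjusted p = 0.774). Of all 15 LG72 libraries 13 held reads, 5 to 48 counts each or 0.331 to 3.39 CPM, and 2 were at 0. Of all 9 LG73 libraries 8 were at 0 and 1 had 1 count. In the human TREM2 pair alone its log2 fold change was -6.35 (SE 1.13, edgeR adjusted p = 0.0905), and it was called there without the filter on low counts and without LG72 R47H-TREM2 female 1. In a fit of the mean of the control and the human TREM2 contrasts, chosen after these values were seen, edgeR called this gene alone (log2 fold change -6.86, SE 1.06, adjusted p = 0.0228), with 921 at an unadjusted p under 0.05. That fit reuses the control libraries by whose p the gene was named, so its adjusted p is no separate test. The fitted value depends on the zeros and is no bound. Leaving out 1 library gave no call for 8 of the 17 libraries, namely LG72 control 1, LG73 controls 1, 2 and 3, and LG73 WT-TREM2 females 2, 3, 5 and 6, and limma-voom called 0 genes. DESeq2 called 6, which were Cistr-act, Vip, Cdkn1a, Rimkla, Ttc13 and Coch. The promoter of Cistr-act (chr15:102746860-102747159, minus strand, RefSeq on GRCm38.p6) is shown because its transcript differed in this way, with the bases from the annotated start onward in capitals.
Cistr: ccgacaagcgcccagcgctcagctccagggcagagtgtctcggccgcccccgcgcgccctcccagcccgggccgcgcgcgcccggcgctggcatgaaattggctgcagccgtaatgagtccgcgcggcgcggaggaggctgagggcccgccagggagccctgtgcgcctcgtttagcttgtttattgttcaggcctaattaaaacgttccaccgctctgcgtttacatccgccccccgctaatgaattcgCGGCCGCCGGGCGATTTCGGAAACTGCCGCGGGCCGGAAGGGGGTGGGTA

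Wdfy1, an endosomal protein on the list of genes known to vary between inbred strains (chr1:79702262-79776143), had 30.2, 41.7 and 7.01 CPM in the LG72 libraries and 8.89, 10.4 and 10.2 CPM in the LG73 libraries (log2 fold change -1.42, SE 0.65). Over all 24 libraries its values fell into a lower range of 7.01 to 10.4 CPM (11 libraries) and an upper range of 24.9 to 54.5 CPM (13 libraries), with none between. The upper range held 12 of 15 LG72 libraries and 1 of 9 LG73 libraries. LG72 control 3 was thus in the lower range with the LG73 controls. Akr1e1, an aldo-keto reductase on the same list, had 17.6, 27.7 and 20.9 CPM in LG72 and 11.9, 14.1 and 12 CPM in LG73 (log2 fold change -0.80, SE 0.39), without overlap, and 10.8 to 35.2 CPM in the 5 LG72 R47H-TREM2 females and 12.8 to 18.7 CPM in the 6 LG73 WT-TREM2 females. The 37 genes of that list had a median log2 fold change of 0.18 (-0.053 without LG73 library 3). Of the genes whose groups did not overlap in the controls, 3 were also separate in the same direction in the human TREM2 females and 14 in the opposite direction. In that pair LG73 lay wholly above LG72 for 0.465% of all genes and wholly below for 0.323%. The 3 were Krt23, Thpo and Ttc13, named after their values were seen. Ttc13, a tetratricopeptide repeat protein (chr8:124671327-124722011), had 26.7, 25.4 and 25.8 CPM in the LG72 libraries and 31.9, 35.3 and 30.6 CPM in the LG73 libraries (log2 fold change 0.33, SE 0.17, edgeR adjusted p = 0.998), and 17.5 to 22.1 CPM in the 5 LG72 R47H-TREM2 females and 27.6 to 36.2 CPM in the 6 LG73 WT-TREM2 females. The LG72 males, at 24.2 to 44.0 CPM, overlapped the LG73 range and lay above the LG72 female range. Krt23, a keratin, had 3 to 9 counts in the LG72 controls and 0 to 1 in the LG73 controls. Thpo, the thrombopoietin gene, had 0.945, 0.279 and 0.935 CPM in LG72 and 1.39, 1.55 and 1.25 CPM in LG73.

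**Figure D5:**
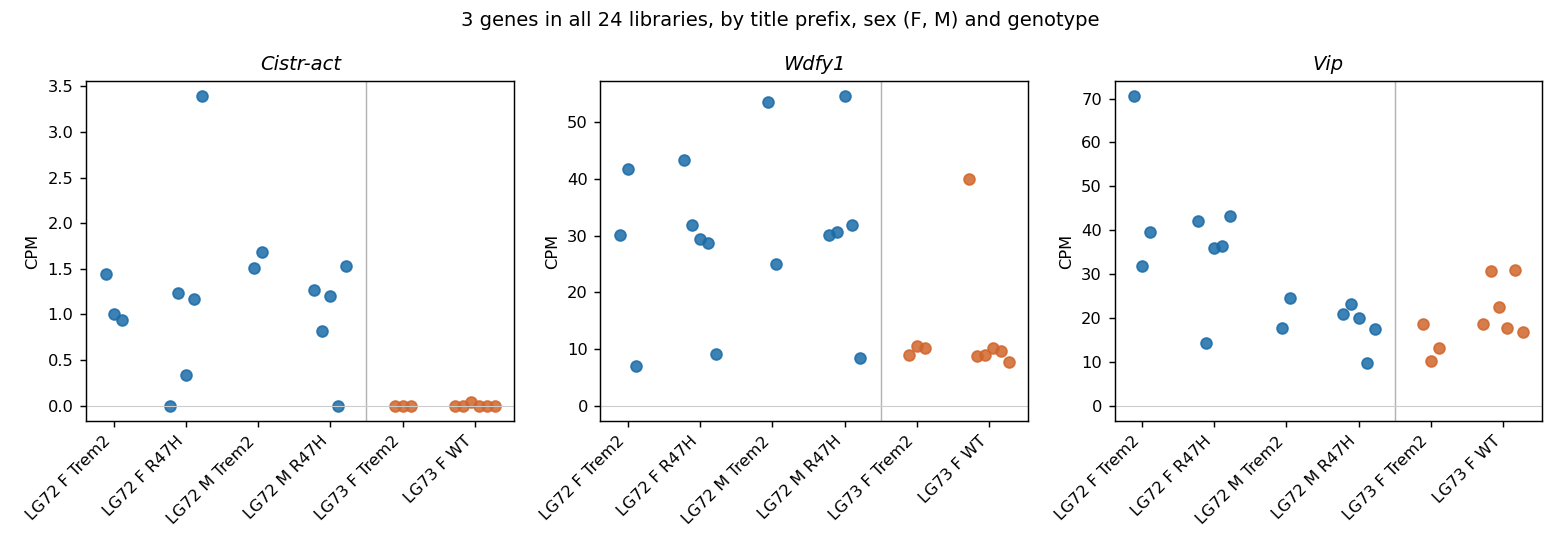
CPM (y axis) of Cistr-act, Wdfy1 and Vip in all 24 libraries, each point 1 library, with the groups named by prefix, sex (F or M) and genotype on the x axis; blue is LG72 and orange LG73. Cistr-act lies at 0.331 to 3.39 CPM in 13 of 15 LG72 libraries and at or near 0 in the LG73 libraries, Wdfy1 lies in the upper range in 12 of 15 LG72 and 1 of 9 LG73 libraries, and Vip overlaps outside the controls.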

How the data were processed

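Hippocampal RNA was enriched with oligo(dT) beads before sequencing, per the labels' protocols. The authors deposited whole-number read counts per gene symbol for 24 libraries, made on GRCm38 per the submitters' processing notes. For the aligner, counting program and strand nothing is stated in the sources used here, so reads of overlapping or antisense genes could not be told apart. Another 18 columns, 6 in this table and 12 in an in vitro table, match no sample and were not used here.

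Genes were filtered with filterByExpr, which left 16118 of 24058 symbols, and scaled with TMM factors. The main test was edgeR's quasi-likelihood test (edgeR 4.0.16, R 4.3.3) on all 24 libraries, with 6 group means and Benjamini-Hochberg adjustment across the genes tested, at a threshold of 0.05. Standard errors come from the F statistic of each fold change. Exact permutation of 3 against 3 libraries has a smallest p of 0.1. List levels use log2 CPM with a prior count of 2. Alternatives were DESeq2 1.42.0, limma 3.58.1, other scaling factors, no filter, a robust fit, the compared groups alone, an adjusted p under 0.1, a slope on transcript length (GENCODE M21) as covariate, left-out libraries, and libraries split at an Alb of 30 CPM. The tests were tried on simulated data. Replicates of a prefix differed by far more than sampling noise (chi-square per degree of freedom of 26.2 or more).

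The genes named were up to 15 called in a direction, filled to 10 by the smallest p where fewer were called, leaving out predicted genes, with Trem2, Mapt, Prnp, Xist, Alb, Prl, Omp, Adora2a and Ttr, and up to 4 genes of smallest p of each list; a few of these are not reported here. The libraries compared, the 47 gene lists and the tests were chosen with earlier results of these data known.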

Additional observations from a re-analysis of the deposited data

How the results depend on the processing

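For the controls the edgeR count of 0 held with both other scaling factors, without the filter, in the robust fit, with the 6 groups reduced to those compared, at an adjusted p under 0.1, with the length covariate, without the libraries of high Omp, Adora2a or Prl, and within either range of Alb. The count was 2 with DESeq2, 1 for the mean of the control and human TREM2 contrasts (chosen after seeing the data), and 0 to 2 when each library was left out. For LG73 WT-TREM2 minus LG72 R47H-TREM2 the count of 1 became 67 with DESeq2 and 2 at an adjusted p under 0.1 or without the filter. It was 0 with limma-voom, with only the groups compared and within either range of Alb. It was also 0 without the 6 of 24 libraries of high Omp, Adora2a or Prl, of which 3 were controls. When each library was left out it was 0 to 1 (without LG72 R47H-TREM2 female 1 the call was Cistr-act). For the difference between the 2 contrasts the count of 0 became 13 with DESeq2 and 0 to 1 when each library was left out. Of 202 genes chosen by the naming rule or added after their values were seen, 66 had another sign in at least 1 setting. Of the 73 among them whose fold changes were followed for the text, 6 turned. Without the libraries that stood apart the log2 fold changes were 0.27 for Doc2g, 0.64 for Trem2 and 0.11 for Hap1. With limma-voom Trem2 was at 0.061, and within low Alb Trem2 was at 1.19 and Mapt at -0.053. With upper-quartile factors Prnp was at 0.028, and within high Alb Gbp2 was at -0.29. With each library left out in turn Trem2 ran from -0.88 to 0.029, Mapt ran from -0.079 to 0.24, Prnp ran from -0.12 to 0.083. The causes were not tested. Cistr-act and Krt23 rest on few counts. No paired analysis was possible because the 2 groups share no number in their titles.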

Other observations

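In the controls the share of genes tested on a chromosome that had an unadjusted edgeR p under 0.05 ran from 2.59% on chromosome 16 to 6.05% on chromosome 1. Markers of blood vessels and connective tissue had median log2 fold changes of 0.00038 for 20 endothelial genes, 0.10 for 16 pericyte and smooth muscle genes and -0.10 for 20 meningeal fibroblast genes. The last of these moved widely, to 0.45 without LG72 library 2, -0.32 without LG72 library 3, -0.80 among the libraries of low Alb and 0.57 among those of high Alb. With each library left out in turn the endothelial median ran from -0.22 to 0.15 and the pericyte and smooth muscle median from -0.15 to 0.24. Cholesterol synthesis (0.039 for 24 genes), the unfolded protein response (0.036 for 28) and cytosolic heat shock genes (0.11 for 22) had medians near that of all genes, -0.024, and ran from -0.17 to 0.13, -0.04 to 0.10 and -0.04 to 0.22 with each library left out.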
